A study of Caenorhabditis elegans with 24 samples.

Results

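Small RNA-seq values of whole young adult Caenorhabditis elegans were compared between the hrde-1(tm1200) mutant (hrde-1) and the wild-type strain N2 (WT) in the first 3 generations of heat, 23C-G1 to 23C-G3. These are 6 of the 24 libraries of the series, 3 of hrde-1 and 3 of WT, with 1 library per genotype and generation, taken by genotype, temperature and generation label. Both strains had been kept at 15 °C, passed 3 synchronised generations there (15C-G1 to G3) and were then moved to 23 °C on NGM plates with E. coli OP50, where they stayed for 6 generations (23C-G1 to G6) before 3 more at 15 °C (p15C-G1 to G3). The 23C-G1 animals had begun life at 15 °C, since they were shifted as embryos. All 12 libraries of a genotype come from 1 population followed through time. The spread between libraries is therefore the spread between successive generations, p-values measure nothing else, and an effect of the hrde-1 mutation cannot be told apart from a difference between these 2 populations. In whole animals, fewer cells of a type and fewer siRNAs per cell cannot be told apart either.

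HRDE-1, also called WAGO-9, is an Argonaute protein of the germline that carries secondary siRNAs into the nucleus. The siRNAs are made by RNA-dependent RNA polymerases on target RNA and are antisense to the exons of the mRNA they match. The bound protein directs repressive histone methylation and transcriptional silencing at the matching genes, and both can be inherited over generations. Mutants of this pathway become sterile over generations at raised temperature, the mortal germline phenotype. Animals make siRNAs against many genes, and other Argonaute proteins bind many of them. What was asked here is which genes differ in antisense siRNA between the genotypes when heat begins.

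The values are reads per kilobase of exon and per 1e6 reads (RPKM) of perfectly matching antisense small RNA, 1 per mRNA. They covered 20167 genes, and the 19839 genes averaging 1 RPKM or more across the 24 libraries were tested. Low values lay on whole multiples of the value of 1 read in 93.5% of cases (7250 low transcripts, tolerance 0.1 read), which implies 363600 to 715800 reads behind each of the 6 libraries if 1 step is 1 read. That is well below the mean number of sequenced tags given for the study's small RNA libraries, so which reads the values count is not known. No value was 0, and 31.3 to 37.9% of the transcripts lay at the value of 1 read, here called the read floor. A gene at the floor is not shown to have any siRNA. In each comparison, log2 fold change means the difference between the mean log2(RPKM + 1) of 3 hrde-1 and 3 WT libraries, with its standard error (SE) from limma, which understates the difference of low genes. A gene was called at a difference of at least 2-fold with an adjusted p (Benjamini-Hochberg, limma, over all tested genes) of at most 0.1.

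The hrde-1 gene itself had siRNAs of 162, 131 and 155 RPKM in hrde-1 at 23C-G1, G2 and G3, against 299, 264 and 308 RPKM in WT. The libraries did not overlap, and the log2 fold change of -0.96 ± 0.12 (SE, adjusted p = 4.24e-06, limma) fell just short of 2-fold. The same value, -0.96, was found at 15C-G1 to G3. tm1200 is a deletion, and the values are summed over the whole mRNA, so they do not show which part of it carried fewer siRNAs and are no full check of the genotype label. Of the study's temperature controls, the small heat shock gene hsp-16.48 had 63.6, 60.5 and 61.9 RPKM in hrde-1 against 44.2, 25.4 and 48.9 RPKM in WT and did not pass the test (log2 fold change 0.69, adjusted p = 0.59). fat-7, a fatty acid desaturase gene, lay at the read floor in all 6 libraries.

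At 23C-G1 to G3, siRNAs of 496 genes were called higher in hrde-1 and those of 635 genes lower, 2.50% and 3.20% of the genes tested. The median log2 fold change was 1.76 among the higher and -1.54 among the lower genes, beside 0.14 over all genes tested. The median over all genes became 0.0032 with the read floor taken off and 0.079 over the 8582 genes averaging 5 reads or more, so that low genes lean slightly upwards. Larger differences were found in both directions, with 203 genes at least 4-fold higher and 190 at least 4-fold lower, of which 35 and 26 were past 16-fold. The genes included well covered ones, with 141 of the higher and 180 of the lower genes among the 1511 genes averaging 100 RPKM or more. The 3 libraries of each genotype did not overlap for 473 of the higher and 616 of the lower genes, where 30.4% of all genes of at least 5 reads did not overlap. The direction was the same in each of the 3 generations for 489 of the 496 higher and 634 of the 635 lower genes. Since the genes were called on these same 6 libraries, the counts without overlap and of the same direction follow largely from the call. The median difference between libraries of the same generation was 1.90, 1.82 and 1.74 for the higher and -1.60, -1.68 and -1.65 for the lower genes at 23C-G1, G2 and G3, on the log2 scale. For 23 of the higher genes all 3 WT libraries lay at the read floor, and for 28 of the lower genes all 3 hrde-1 libraries did.

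**Figure D1:**
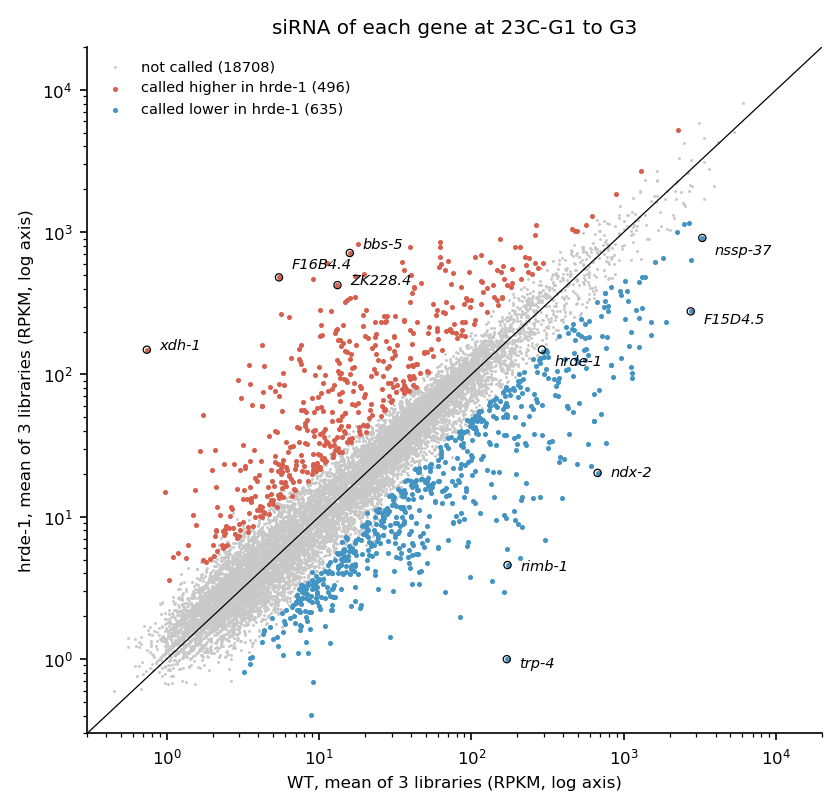
Mean siRNA of each of the 19839 genes tested in the 3 hrde-1 libraries (vertical, RPKM, log axis) against the 3 WT libraries (horizontal, RPKM, log axis) at 23C-G1 to G3, with the 496 genes called higher and the 635 called lower in hrde-1 in colour and equality as a line. The called genes lie on both sides of the line over the whole range of levels, and hrde-1 itself, not called, lies close below it.

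Among called genes with at least 10 RPKM and no overlap between genotypes, the largest difference upwards was at xdh-1. This gene encodes xanthine dehydrogenase of purine breakdown. Its siRNAs were at 199, 157 and 91.8 RPKM in hrde-1 at 23C-G1, G2 and G3, against 0.34, 1.23 and 0.65 RPKM in WT (log2 fold change 6.39 ± 0.30, adjusted p = 4.44e-13, limma). The WT values correspond to 1 or 2 reads, so xdh-1 siRNAs were nearly absent from WT and well covered in hrde-1. F16B4.4 followed with 345, 618 and 480.5 RPKM in hrde-1 against 3.45, 6.25 and 6.66 RPKM in WT, where all 3 libraries lay at the read floor. Counted against 3 reads per WT library, that is at least 29.5-fold higher in hrde-1. Other genes of this group, all chosen for no overlap between the genotypes, had some siRNA in WT.

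Genes of the sensory cilium stood high in this list. ift-20, a subunit of the intraflagellar transport machinery, had 567, 691 and 573 RPKM in hrde-1 against 7.16, 12.98 and 13.8 RPKM in WT (log2 fold change 5.67 ± 0.45, adjusted p = 2.59e-09). bbs-5, a subunit of the BBSome that carries cargo along cilia, had 632, 770.2 and 738.5 RPKM in hrde-1 against 11.57, 16.3 and 19.9 RPKM in WT (5.43 ± 0.27, adjusted p = 1.44e-12). Both were higher in every hrde-1 library than in any WT library by more than an order of magnitude. A pair of hedgehog-related genes, which encode secreted proteins of the nematode cuticle and epithelia, showed the same. wrt-5 had 402, 486 and 509 RPKM in hrde-1 against 11.02, 8.00 and 8.52 RPKM in WT, and grl-10 had 305, 322 and 174 RPKM in hrde-1 against 2.98, 8.09 and 5.75 RPKM in WT. Their log2 fold changes were 5.52 ± 0.33 and 5.37 ± 0.35.

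The list also held an enzyme and a signalling gene. ugt-22, which encodes a UDP-glucuronosyltransferase of detoxification, had 258, 273 and 234 RPKM in hrde-1 against 6.18, 7.47 and 5.31 RPKM in WT. sma-2, a Smad protein of the TGF-β pathway that sets body size, had 152, 158 and 172 RPKM in hrde-1 against 1.90, 5.17 and 5.51 RPKM in WT. The log2 fold changes were 5.14 and 5.05. Y61A9LA.7 was the most abundant of these 10 genes, at 737 to 898.5 RPKM in hrde-1 and 12.4 to 23.9 RPKM in WT. ZK228.4 had the widest spread of hrde-1 libraries among these 10, at 161, 460 and 652 RPKM at 23C-G1, G2 and G3, against 24.9, 5.65 and 9.02 RPKM in WT (4.93 ± 0.59, adjusted p = 1.58e-06). By inferred reads, the 10 genes had at least 62.0 reads in each hrde-1 library and at most 18.1 in each WT library.

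**Figure D2:**
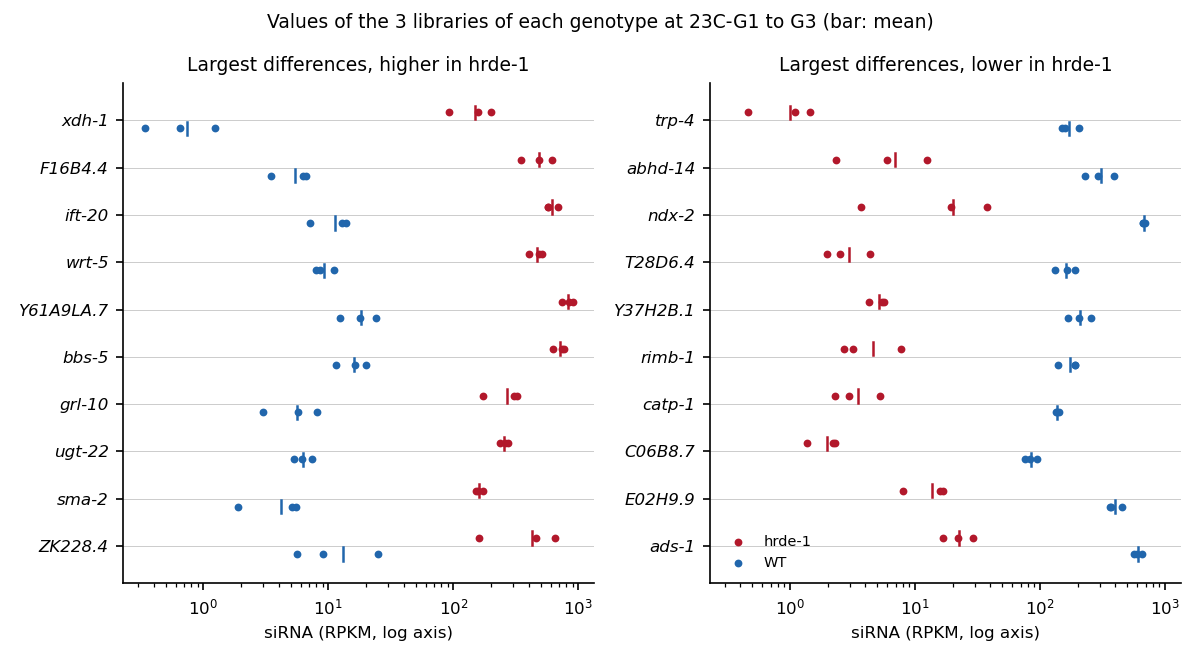
siRNA of the 10 genes with the largest log2 fold change upwards (left) and downwards (right) at 23C-G1 to G3, each point 1 library and each bar the mean of 3 (RPKM, log axis), hrde-1 above WT in each row. All 20 genes were chosen among called genes without overlap between the genotypes, so the separation follows from that choice. Within hrde-1 the points spread widest at ndx-2, abhd-14 and ZK228.4.

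Of the 10 genes with the largest difference downwards, a pair act in neurons. trp-4, a mechanosensitive TRP channel of the dopaminergic neurons, had 1.09, 1.44 and 0.46 RPKM in hrde-1 at 23C-G1, G2 and G3 against 150, 204 and 158 RPKM in WT (log2 fold change -6.44 ± 0.24, adjusted p = 3.39e-14, limma). rimb-1, a scaffold protein of the presynaptic active zone, had 3.22, 7.79 and 2.71 RPKM in hrde-1 against 139, 189 and 189 RPKM in WT (-5.06 ± 0.27). Their siRNAs in hrde-1 came down to few reads. Enzyme and transporter genes made up much of the rest. ads-1, which encodes alkylglycerone phosphate synthase of ether lipid synthesis, had 28.9, 21.97 and 16.8 RPKM in hrde-1 against 567, 654 and 599 RPKM in WT (-4.72 ± 0.25). abhd-14, an alpha/beta hydrolase gene, had 2.35, 12.4 and 5.92 RPKM in hrde-1 against 394, 293 and 227 RPKM in WT (-5.46 ± 0.38). ndx-2, a nudix hydrolase gene, had 37.96, 19.3 and 3.68 RPKM in hrde-1 against 694, 665 and 661 RPKM in WT, and thus came down between the hrde-1 libraries while the WT libraries stayed close together. catp-1, a P-type cation ATPase gene, had 5.26, 2.31 and 2.95 RPKM in hrde-1 against 142, 136 and 133 RPKM in WT. The other 4, T28D6.4, Y37H2B.1, C06B8.7 and E02H9.9, had log2 fold changes of -5.40, -5.09, -4.86 and -4.82. All 10 genes had at least 66.0 inferred reads in each WT library and at most 26.0 in each hrde-1 library.

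The most abundant called genes showed smaller differences. Y53F4B.5, at the top, had 4865, 5624 and 5051 RPKM in hrde-1 against 2036, 2638 and 2163 RPKM in WT (log2 fold change 1.19 ± 0.11, adjusted p = 1.35e-08, limma). Y77E11A.3 had 2527, 2912 and 2622 RPKM in hrde-1 against 1214, 1480 and 1195 RPKM in WT (1.05 ± 0.12). osm-3, the kinesin motor of sensory cilia, had 906, 1107 and 1027 RPKM in hrde-1 against 373, 527 and 540.3 RPKM in WT (1.09 ± 0.18). The 8 most abundant higher genes lay between 1.00 and 1.23 in log2 fold change, just past the 2-fold minimum. Calls this near the minimum depended on single libraries. W04A8.6 was at 0.996 without WT 23C-G1 and at 0.995 without hrde-1 23C-G2, Y116A8B.1 at 0.88 without WT 23C-G2 and 0.86 without hrde-1 23C-G3, and W03G1.8 at 0.91 without WT 23C-G3 and 0.95 without hrde-1 23C-G2. mif-2, a homologue of macrophage migration inhibitory factor, was at 0.95 without WT 23C-G1 or G3 and at 0.91 without hrde-1 23C-G2. Y77E11A.3 was at 0.996 without hrde-1 23C-G2 and osm-3 at 0.92 without WT 23C-G1. Y53F4B.5 and W03F9.3 kept their calls without any 1 library.

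Of the 8 most abundant lower genes, 5 were further from the threshold. nssp-37, a nematode-specific peptide gene, had 867, 911 and 953 RPKM in hrde-1 against 2665, 3646 and 3521 RPKM in WT (log2 fold change -1.83 ± 0.13, adjusted p = 4.55e-10, limma). F15D4.5 had 272, 267 and 293 RPKM in hrde-1 against 2211, 3065 and 2974 RPKM in WT (-3.29 ± 0.13), the largest difference among these most abundant called genes. rnh-1.3, which encodes an RNase H that cuts RNA in RNA-DNA hybrids, had 686, 656 and 563 RPKM in hrde-1 against 2128, 2918 and 3199 RPKM in WT (-2.10 ± 0.23). The adaptor genes bath-20 and bath-45 had 1081 to 1232 and 1043 to 1262 RPKM in hrde-1 against 2359 to 2947 and 2257 to 2749 RPKM in WT. At -1.19 and -1.12 they lay as near the 2-fold minimum as the most abundant higher genes, and so did Y48G1BM.8 at -1.16. T01A4.3 and W03H9.2 completed the 8, at -1.48 and -1.39. None of the 8 calls was lost without any 1 library or under any other alternative.

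The genes called lower were spread unevenly over the chromosomes. The X chromosome held 13.3% of the placed genes that were tested, 3.70% of those called higher (18 genes) and 24.9% of those called lower (152 genes). Over the X genes of at least 5 reads, the median log2 fold change was -0.31 (660 genes), against 0.06 to 0.13 on chromosomes I to V. Chromosome IV had the fewest lower calls, 63 genes, and chromosome III had 100 of the higher calls, 20.6%. The share of the lower genes that lie on X was 24.2 to 28.1% under every alternative tried. The share of the higher genes was 0.31% with a pseudocount of 10 RPKM and 2.40% without hrde-1 23C-G3, and 2.61 to 4.73% otherwise.

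Called genes also lay next to each other. Of the genes placed on the reference annotation, 79 lower genes formed 22 groups of at least 3 with at most 10 kb from gene to gene, and 47 higher genes formed 14 such groups. The largest was on X, where AC8.3, AC8.4, AC8.7, AC8.10, AC8.11 and AC8.12 were all lower. AC8.7 had 119, 106 and 124 RPKM in hrde-1 at 23C-G1, G2 and G3 against 674.5, 1005 and 805 RPKM in WT, and AC8.4 had 65.4, 54.7 and 60.3 RPKM in hrde-1 against 376, 460.5 and 443 RPKM in WT, both at a log2 fold change of -2.81. These 6 genes are 3 pairs with identical values in all libraries (AC8.3 with AC8.10, AC8.4 with AC8.11, AC8.7 with AC8.12), so they stand for 3 measurements. AC8.3 was at -1.03, and at -0.97 without WT 23C-G2 or without hrde-1 23C-G3, when its call was lost.

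The next groups, in both directions, mixed strong and weak members. On chromosome IV, idpp-7 had 169, 180.1 and 208 RPKM in hrde-1 against 5.38, 14.6 and 10.4 RPKM in WT (log2 fold change 4.16 ± 0.38), and its neighbour T23F6.3 had 387, 422.5 and 427 RPKM in hrde-1 against 26.8, 75.6 and 23.0 RPKM in WT (3.48 ± 0.37). Between and beside them C27D8.1 and T23F6.2 were called at 1.72 and 1.69, calls that were lost at 1.205 (C27D8.1) without WT 23C-G3 and at 1.04 to 1.81 (T23F6.2) without any 1 of 5 libraries. On chromosome V, C53A3.3 (2.59), C53A3.1 (2.37), pgph-3 (1.7), acds-10 (1.60) and pgph-1 (1.1) were higher, of which the last lost its call without WT 23C-G1 (0.71), hrde-1 23C-G2 (1.019) or hrde-1 23C-G3 (1.07). On chromosome I, K07A1.1 (1.78), C36F7.5 (1.51), F42H11.1 (1.34), K07A1.4 (1.16) and K07A1.5 (1.05) were higher, and the last pair lost their calls without any 1 of 4 libraries each, at 0.90 to 1.26 for K07A1.4 and 0.90 to 0.9985 for K07A1.5. Each group was formed of genes called in 1 direction. The few other tested genes within these stretches held no call in the opposite direction.

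F-box genes were among the members of a pair of groups of lower genes. On chromosome V, Y102A5C.36 (log2 fold change -2.48), fbxa-111 (-2.35), fbxa-110 (-1.78), fbxa-112 (-1.21) and the lectin gene clec-238 (-3.50) were lower in a stretch of 26.7 kb that held 1 other tested gene, fbxa-148, which was not called. fbxa-110 had 123, 116 and 78.5 RPKM in hrde-1 against 363, 431 and 299.5 RPKM in WT. fbxa-112 lost its call without WT 23C-G2 (-0.87) or hrde-1 23C-G3 (-1.18). On chromosome II, fbxc-42 (-1.24), fbxb-29 (-1.54), F45D11.14 (-1.20), F45D11.15 and F45D11.16 (both -1.21) were lower, of which the last pair had identical values and fbxb-29 lost its call without hrde-1 23C-G3 (-1.18). Of the 3 other tested genes in that stretch, fbxb-28, fbxb-30 and F45D11.5, none was called. The F45D11 genes had only 2.30 to 2.77 RPKM in hrde-1 and 6.58 to 7.62 RPKM in WT.

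High-stringent NHGs are the study's term for genes that heat can induce and that nuclear RNAi holds down, picked by their mRNA in hrde-1. Since that list was chosen on mRNA of these strains, it is not an independent sample of genes. Of its 39 genes 38 were tested, with a median log2 fold change of -0.47 beside 0.14 over all genes. In siRNA 4 were called higher and 14 lower, 10.5% and 36.8%, beside 2.50% and 3.20% of all genes. The 33 with at least 5 reads held all these calls, at a median of -0.65. Over all genes of that depth 5.02% were higher and 6.33% lower, at a median of 0.079. Counting NHGs with identical values as 1 left 36 of the 38, with 4 higher and 12 lower. At 15C-G1 to G3 the median of the 38 genes was -0.06, with 5 higher and 8 lower. Over the alternatives tried, 3 to 4 members were higher and 11 to 14 lower at 23C-G1 to G3. Among the 17 members next to an LTR retrotransposon, all of at least 5 reads, 3 were higher and 5 lower, 17.6% and 29.4%.

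The 6 cumulative NHGs, whose mRNA was described as rising over the heat generations in hrde-1, had a median of -1.53. Of them 4 were called lower, 66.7% of a very short list, beside 3.20% of all genes. F40D4.13 had the largest difference of all NHGs, with 116, 122 and 100.2 RPKM in hrde-1 at 23C-G1, G2 and G3 against 1014, 1222 and 1125 RPKM in WT (log2 fold change -3.30 ± 0.17, adjusted p = 1.46e-12, limma). F41G4.7 had 372.5, 226 and 134 RPKM in hrde-1 against 893, 1168 and 985 RPKM in WT (-2.16 ± 0.23). ZC15.3 had 373, 238 and 224 RPKM in hrde-1 against 700.2, 930 and 747 RPKM in WT (-1.53 ± 0.19), and C18D4.6 had 147, 117 and 65.0 RPKM in hrde-1 against 229, 363 and 333 RPKM in WT (-1.53 ± 0.27). The hrde-1 values of these 3 genes were lowest at 23C-G3, while their WT values were lowest at 23C-G1. F58H7.5 had 1227, 856 and 600.4 RPKM in hrde-1 against 1291, 1611 and 1468 RPKM in WT (-0.76 ± 0.17, adjusted p = 0.00396), with no overlap but short of 2-fold. ZC15.10 did not differ beyond its spread, with 1265, 1070 and 623 RPKM in hrde-1 against 946, 1032 and 826 RPKM in WT (0.02 ± 0.22). In each of the 6 the hrde-1 library of 23C-G3 lay lowest of the 3. No slope difference between the genotypes passed the test at any of them.

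Other NHGs went either way. ZK262.9 had 108, 63.2 and 60.5 RPKM in hrde-1 against 672, 774.5 and 620 RPKM in WT (log2 fold change -3.19 ± 0.25), and glit-1, a gliotactin homologue of the neuroligin family, had 38.6, 75.7 and 97.3 RPKM in hrde-1 against 310, 416 and 385 RPKM in WT (-2.46 ± 0.38). The higher members were F41G4.5 (2.08), ZC15.1 (2.02), the neuropeptide receptor gene pdfr-1 (1.93) and Y77E11A.3 (1.05), all without overlap. F41G4.5 had 215, 225 and 210.2 RPKM in hrde-1 against 49.2, 72.0 and 36.5 RPKM in WT. Thus F41G4.5 and F41G4.7 differed in opposite directions, as did ZC15.1 and ZC15.3.

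**Figure D3:**
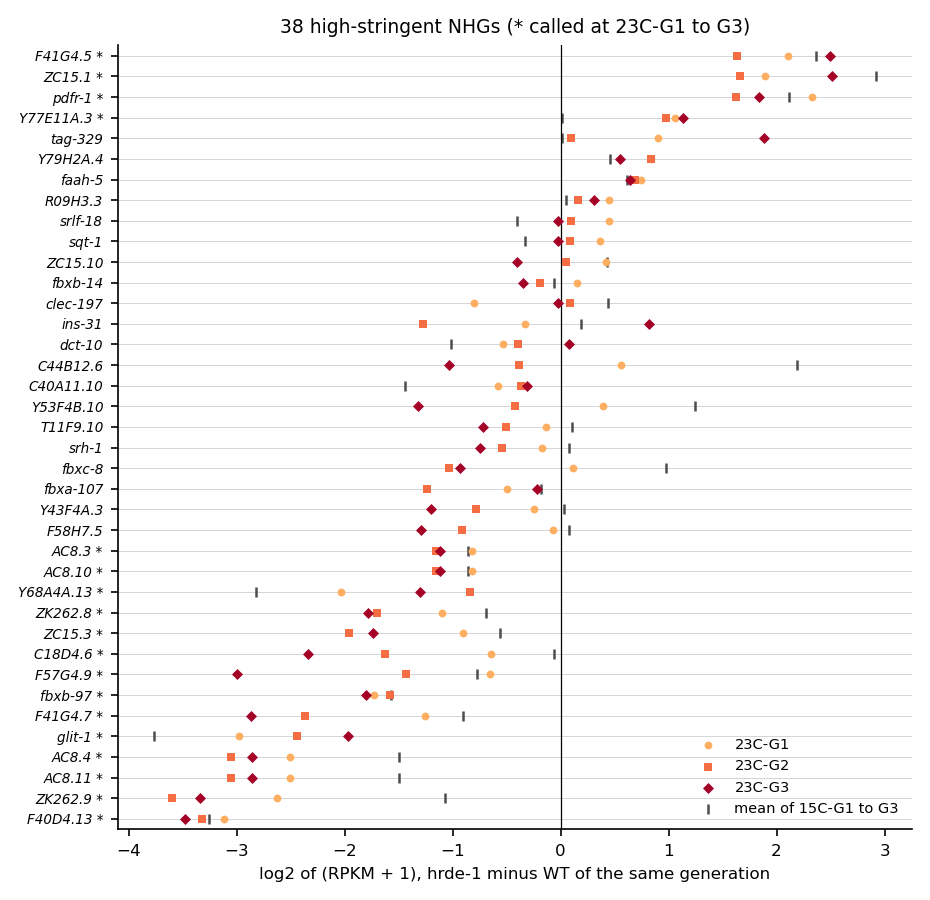
Difference in log2(RPKM + 1), hrde-1 minus WT of the same generation, for the 38 tested high-stringent NHGs at 23C-G1, G2 and G3 (coloured points), with the mean log2 fold change at 15C-G1 to G3 as a grey tick and called genes starred. The 14 genes called lower lie left of 0 in each generation and the 4 called higher right of it, which follows largely from the call.

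The lists of the RNAi machinery were short, and few members were called. Of 22 Argonaute genes and 17 genes of nuclear RNAi and heterochromatin none was called, with medians of 0.17 and 0.12. Since 2.50% of all genes were higher and 3.20% lower, lists this short hold few calls, and this does not set them apart. prg-1, the Piwi protein that binds piRNAs, had 544, 511 and 544 RPKM in hrde-1 against 478, 436 and 424 RPKM in WT, and nrde-2, a nuclear RNAi factor, had 277, 238 and 288 RPKM in hrde-1 against 238, 196 and 220 RPKM in WT. At both, differences were small (log2 fold changes 0.26 and 0.30) and did not pass the test. Of 27 genes of siRNA synthesis only rrf-2, a homologue of RNA-dependent RNA polymerases, was called, with 29.5, 28.2 and 17.1 RPKM in hrde-1 against 71.1, 64.7 and 44.1 RPKM in WT (-1.24 ± 0.24). sid-1, the channel for double-stranded RNA, had 226 to 244 RPKM in hrde-1 and 307 to 338 RPKM in WT (-0.47 ± 0.10, adjusted p = 0.00258), short of 2-fold, and none of 4 import genes was called. Of 7 loci known as sources of ERGO-1-bound primary siRNAs, E01G4.5 alone was called (14.3%), with 144, 303 and 402 RPKM in hrde-1 against 914, 902 and 1771 RPKM in WT (-2.12 ± 0.39). Among 13 germ granule genes, meg-4 (-1.64) and meg-2 (1.03) were called in opposite directions, 7.69% each. The call of meg-2, at 5.01 to 8.51 RPKM in hrde-1 and 2.05 to 3.39 RPKM in WT, was lost without any 1 of 5 libraries, at 0.87 to 1.13.

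**Figure D4:**
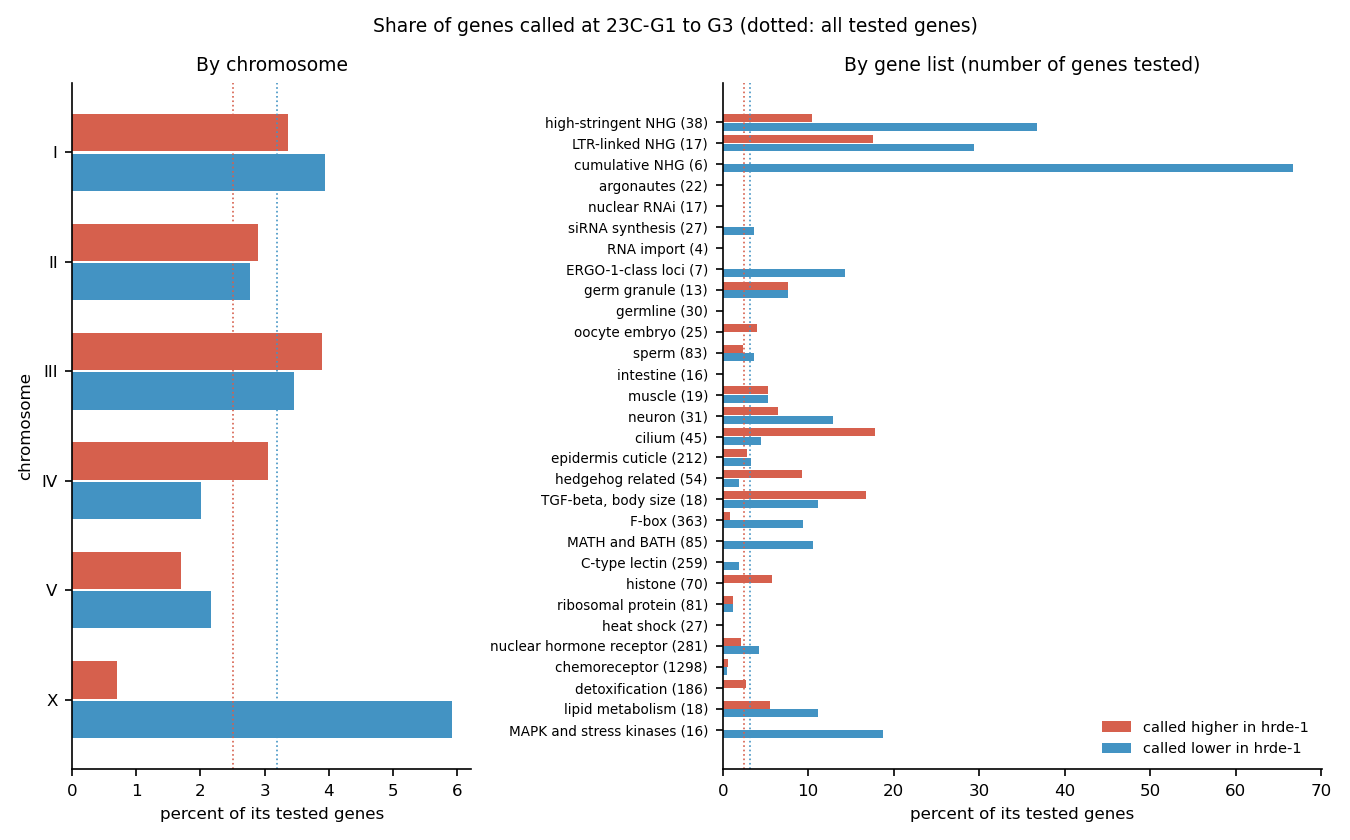
Percent of tested genes called higher or lower in hrde-1 at 23C-G1 to G3 by chromosome (left) and in each of 30 gene lists with the number tested in brackets (right), with dotted lines at the 2.50% and 3.20% of all genes. X stands out by 5.93% lower and 0.70% higher genes, and the short lists have shares that rest on few genes.

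Gene lists for the cell types that whole animals hold were described next, as siRNA against such genes, not as their expression. None of 30 genes of the mitotic and meiotic germline was called, with a median of 0.09 and summed siRNA of 2257 to 2661 RPKM in hrde-1 against 1889 to 2400 RPKM in WT. Of 25 oocyte and early embryo genes only egg-1, which acts in fertilisation, was called (1.09), and that call was lost without WT 23C-G2 (0.68). The summed siRNA of that list was 1711 to 2272 RPKM in hrde-1 against 1208 to 1636 RPKM in WT, which did not overlap, and its part in the differences was not tested. Among 83 sperm genes 2 were higher and 3 lower, 2.41% and 3.61%, near the 2.50% and 3.20% of all genes. At 15C-G1 to G3 20 of the 83 were higher and 2 lower. The test of the change between these phases called none of the 83, so the counts do not show a difference between phases. spe-51 had 39.7, 34.9 and 25.9 RPKM in hrde-1 against 8.85, 1.78 and 7.60 RPKM in WT (2.46 ± 0.47), and spe-41, a sperm calcium channel gene, had 13.3, 16.51 and 16.8 RPKM in hrde-1 against 52.4, 54.2 and 42.5 RPKM in WT (-1.61 ± 0.29). spe-21 (1.16, at the read floor in all 3 WT libraries) lost its call without any 1 of 4 libraries, at 0.91 to 1.25, and fer-1 (-1.64) lost it without hrde-1 23C-G3, at -1.16.

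The lists of body tissues were short, so that their shares rest on few genes. Of 16 intestine genes none was called, and mtl-2, a metallothionein gene, lay at the read floor in all 6 libraries. Of 19 muscle genes 1 was higher and 1 lower, 5.26% each. In that list, unc-87, a calponin-like actin-binding protein, was higher with 35.5, 22.9 and 29.8 RPKM in hrde-1 against 1.19, 2.70 and 2.30 RPKM in WT (log2 fold change 3.33 ± 0.30), and tropomyosin lev-11 (-1.08) was called lower although its libraries overlapped, a call lost without any 1 of 4 libraries at -0.79 to -0.98. Of 31 neuron genes 4 were lower and 2 higher, 12.9% and 6.45%. Besides trp-4 and rimb-1, dlk-1, a MAP kinase kinase kinase of axon regeneration, had 23.2, 25.6 and 23.6 RPKM in hrde-1 against 373, 411 and 344 RPKM in WT (-3.91 ± 0.20). egl-21, a carboxypeptidase that processes neuropeptides, had 275, 350.2 and 308 RPKM in hrde-1 against 33.1, 54.0 and 81.4 RPKM in WT (2.53 ± 0.35). The remaining pair, unc-31 (-1.36) and unc-119 (1.03), are named here after their values were seen. The summed siRNA of the neuron list was 603 to 711 RPKM in hrde-1 against 991 to 1096 RPKM in WT, and its part in the differences was not tested. Most of the WT sum came from trp-4, rimb-1 and dlk-1, so it does not describe the list as a whole. The median log2 fold change over the 31 genes was 0.06, beside 0.14 over all genes.

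Of 45 tested cilium genes 8 were called higher and 2 lower, 17.8% and 4.44% of the list. Besides ift-20, bbs-5 and osm-3, arl-13, a small GTPase of the ciliary membrane, had 706, 726 and 643 RPKM in hrde-1 against 122, 123 and 104 RPKM in WT (log2 fold change 2.56 ± 0.15, adjusted p = 2.25e-11, limma). dyf-17 (2.39), the BBSome gene bbs-4 (2.105) and the transition zone genes mks-6 (1.16) and nphp-1 (1.11) were also higher, and osm-1 (-1.91), an intraflagellar transport gene, was lower; these 5 are named after their values were seen. ifta-1, of the same machinery, had 0.58 to 0.76 RPKM in hrde-1, all at the read floor, and 5.24 to 12.7 RPKM in WT (-2.50). The median over the 45 genes was 0.14, equal to that of all genes, and 0.64 over the 18 of at least 5 reads, beside 0.079 over all such genes. Over the alternatives tried, 6 to 8 of the list were higher and 0 to 3 lower.

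Of 54 hedgehog-related genes 5 were higher and 1 lower, 9.26% and 1.85%, beside 2.50% and 3.20% of all genes. Beside wrt-5 and grl-10, grd-15 had 123, 196 and 161 RPKM in hrde-1 against 22.2, 24.1 and 23.5 RPKM in WT (log2 fold change 2.70 ± 0.42), and grl-18 had 14.02, 27.4 and 45.2 RPKM in hrde-1 against 1.04, 1.89 and 2.01 RPKM in WT, all at the read floor (3.37 ± 0.45). Of 212 collagens and cuticlins, which build the cuticle, 6 were higher and 7 lower. These shares, 2.83% and 3.3%, lay near the 2.50% and 3.20% of all genes. cutl-14 had 553, 543 and 438 RPKM in hrde-1 against 16.7, 15.14 and 26.9 RPKM in WT (4.67 ± 0.39), and cutl-10 had 11.7, 13.3 and 4.23 RPKM in hrde-1 against 185, 185 and 137 RPKM in WT (-4.10 ± 0.29). These 2 cuticlin-like genes differed by similar amounts in opposite directions. cutl-26 (4.14) was higher and col-162 (-2.56) lower.

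The TGF-β and body size genes were likewise split, with 3 of 18 higher and 2 lower. sma-3, a Smad partner of sma-2, had 280.4, 186 and 170 RPKM in hrde-1 against 70.0, 59.6 and 49.2 RPKM in WT (log2 fold change 1.79 ± 0.18). lon-8, a secreted protein that limits body length, had 43.6, 37.2 and 16.8 RPKM in hrde-1 against 616, 632 and 499.7 RPKM in WT (-4.22 ± 0.39), and daf-7, a TGF-β ligand of the dauer pathway, had 13.9, 8.32 and 4.78 RPKM in hrde-1 against 116, 84.3 and 26.1 RPKM in WT (-2.80 ± 0.43). The values of daf-7 went down over the 3 generations in both genotypes. Of 16 MAP kinase and stress kinase genes none was higher and 3 were lower, 18.8% of a short list. cdk-14, a cyclin-dependent kinase gene on that list, had 3.85, 6.78 and 14.6 RPKM in hrde-1 against 211, 218 and 218 RPKM in WT (-4.69 ± 0.38), dlk-1 was given above, and mek-1 (-1.03) lost its call without any 1 of 4 libraries at -0.87 to -0.97.

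Adaptor genes of ubiquitin ligases leaned downwards. F-box proteins choose the substrates of cullin-based ligases, and of 363 tested F-box genes 34 were lower and 3 higher, 9.37% and 0.83% of the list. The median log2 fold change of the F-box genes at 23C-G1 to G3 was -0.02, beside 0.14 over all genes. It was -0.33 among the 144 with at least 5 reads, beside 0.079 over all such genes. fbxa-184 had 9.12, 6.02 and 11.5 RPKM in hrde-1 at 23C-G1, G2 and G3 against 261, 209 and 134 RPKM in WT (-4.34 ± 0.39), and fbxa-166 had 35.4, 37.3 and 40.2 RPKM in hrde-1 against 300.1, 334 and 236 RPKM in WT (-2.90 ± 0.38). fbxa-115 (-2.78) was lower as well. fbxa-125 was the largest exception, with 137, 102 and 94.0 RPKM in hrde-1 against 19.3, 20.4 and 9.33 RPKM in WT (2.74 ± 0.32). Of 85 MATH and BATH genes, adaptors of cullin-3, 9 were lower and none higher, with math-1 at 176, 143 and 127 RPKM in hrde-1 against 446, 653 and 539 RPKM in WT (-1.87 ± 0.18). bath-21 was at -1.73. bath-34 (-1.58) and math-43 (-1.34) lost their calls without hrde-1 23C-G3, at -1.12 and -1.06. With a pseudocount of 10 RPKM, 19 F-box genes were lower at 23C-G1 to G3, and under the other alternatives 26 to 40. Members of these families are alike in sequence, and reads that match several genes may have been counted in ways the sources used here do not state, so single members are uncertain.

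Most genes of the immune and detoxification lists averaged fewer than 5 reads, and few of the whole lists were called. Of 259 C-type lectin genes 5 were lower (1.93%, beside 3.20% of all genes) and none higher. Of the 26 with at least 5 reads 4 were lower, beside 6.33% over all genes of that depth. clec-12 had 13.2, 8.69 and 8.31 RPKM in hrde-1 against 72.8, 88.95 and 74.5 RPKM in WT (log2 fold change -2.87 ± 0.26), clec-169 was at -2.02, and clec-125 (-1.51) lost its call without WT 23C-G2 at -1.31. Of 186 detoxification genes 5 were higher (2.69%, beside 2.50% of all genes) and none lower. All 5 were among the 26 with at least 5 reads, beside 5.02% higher over all genes of that depth. gst-43, a glutathione S-transferase gene, had 349, 338 and 284 RPKM in hrde-1 against 35.1, 52.4 and 31.9 RPKM in WT (3.02 ± 0.26), and gst-5 went up between the hrde-1 libraries, at 20.1, 60.4 and 123 RPKM against 5.75, 13.9 and 7.41 RPKM in WT (2.52 ± 0.46). gst-30 was at 1.84. Of 18 lipid genes, the acid sphingomyelinase asm-3 was higher, with 55.4, 83.9 and 134 RPKM in hrde-1 against 2.76, 1.43 and 4.57 RPKM in WT (4.54 ± 0.40), while ads-1 and the acyltransferase dgat-2 (-1.77) were lower.

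Most members of the receptor families had few siRNAs. Of 281 nuclear hormone receptor genes 6 were higher and 12 lower, 2.14% and 4.27%. Of the 57 with at least 5 reads 5 were higher and 9 lower, where 5.02% and 6.33% of all genes of that depth were. nhr-15 was the most abundant of the 4 with the largest differences, with 247, 313 and 323 RPKM in hrde-1 against 1266, 1372 and 1324 RPKM in WT (log2 fold change -2.17 ± 0.14), and nhr-81 (-3.13), nhr-65 (-2.51) and nhr-11 (-2.05, at the read floor in all 3 hrde-1 libraries) were lower. Of 1298 chemoreceptor genes, most of them at or near the read floor, 8 were higher and 7 lower. That is 0.616% and 0.539%, beside 2.50% and 3.20% of all genes. Of the 23 with at least 5 reads 5 were higher and 3 lower, beside 5.02% and 6.33% over all genes of that depth. srsx-25 stood apart with 420.1, 318 and 237 RPKM in hrde-1 against 13.5, 13.6 and 17.3 RPKM in WT (4.34 ± 0.23), and sre-36 (-2.10), srd-20 (-2.02) and sri-5 (-1.84) were lower.

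Among housekeeping and stress genes, called members are given beside the 2.50% higher and 3.20% lower of all genes. Of 70 histone genes 4 were higher (5.71%) and none lower. All 4 were among the 55 with at least 5 reads, beside 5.02% higher over all genes of that depth. his-41 had 121, 124 and 104 RPKM in hrde-1 against 40.9, 38.3 and 43.3 RPKM in WT (log2 fold change 1.49 ± 0.19). his-52 and his-54 (both 1.697) had identical values and stand for 1 measurement, and his-47 (1.22) lost its call without WT 23C-G3 at 0.94. Of 81 ribosomal protein genes rpl-11.2 was lower (-2.18) and rps-10 higher (1.12), 1.23% of the list each. The call of rps-10 was lost without WT 23C-G3 (0.87) or hrde-1 23C-G2 (0.94). None of 27 heat shock genes was called, in a list short for the shares of all genes. sip-1, a small heat shock protein of embryos, had the most siRNA of these, with 264, 227.7 and 207 RPKM in hrde-1 against 131, 142 and 114 RPKM in WT (0.85 ± 0.21, adjusted p = 0.0112), without overlap but short of 2-fold.

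Whether a difference at 23C-G1 to G3 was already there before heat was asked by testing the change of the genotype difference between 15C-G1 to G3 and 23C-G1 to G3. That change was called upwards for 73 genes and downwards for 100, 0.368% and 0.504% of the genes tested. The median change over all genes was 0.25, and -0.04 over those of at least 5 reads. With the generation number as a block, the counts were 119 upwards and 167 downwards. Among the genes called upwards, hrde-1 changed by a median of 1.19 and WT by -0.55 between 15 °C and 23 °C, and among those called downwards hrde-1 changed by a median of -0.56 and WT by 1.25, on the log2 scale. These medians describe genes chosen by the same contrast. The counts rested on single libraries. Without hrde-1 23C-G1 119 genes went upwards, without hrde-1 23C-G2 46 did, and without hrde-1 23C-G3 39 went upwards and 44 downwards. Without WT 23C-G2 47 went downwards.

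Of the 5 largest changes upwards, 4 were at genes averaging 4.93 to 15.2 RPKM in hrde-1 at 15C-G1 to G3. ZK228.4 averaged 13.4 RPKM in hrde-1 and 16.9 RPKM in WT at 15C-G1 to G3, and 424 RPKM in hrde-1 and 13.2 RPKM in WT at 23C-G1 to G3 (change of the log2 fold change 5.02 ± 0.83, adjusted p = 0.00369, limma). ZK228.10 went the same way, with 15.2 RPKM in hrde-1 and 7.38 RPKM in WT at 15 °C and 282 RPKM in hrde-1 and 10.2 RPKM in WT at 23 °C (3.78 ± 0.57). nadk-1, which encodes an NAD kinase, had 3.53, 6.16 and 5.09 RPKM in hrde-1 at 15C-G1, G2 and G3 against 181, 210.4 and 152 RPKM in WT. At 23C-G1, G2 and G3 it had 40.95, 175 and 297 RPKM in hrde-1 against 158, 145 and 95.3 RPKM in WT, so that hrde-1 lay far below WT in every generation at 15 °C (log2 fold change -4.96), while at 23 °C the difference went both ways, at -1.93, 0.27 and 1.63 in 23C-G1, G2 and G3 (mean -0.01). fbxa-60, the fifth, averaged 66.6 RPKM in hrde-1 at 15 °C and changed sides, being lower in hrde-1 at 15 °C (-1.94) and higher at 23 °C (1.64), with siRNA of 65.3, 58.4 and 23.1 RPKM in WT at 23C-G1, G2 and G3 against 265, 256 and 248 RPKM in the WT libraries of 15 °C. F21D9.8 averaged 7.63 RPKM in hrde-1 and 220 RPKM in WT at 15 °C, and 239 RPKM in hrde-1 and 543 RPKM in WT at 23 °C (3.36). The call of F21D9.8 was lost without any 1 of 4 libraries, WT 23C-G1 or G3 and hrde-1 23C-G2 or G3, at 2.99 to 3.33.

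The 5 largest changes downwards were at genes with more siRNAs in hrde-1 than in WT at 15 °C and with a smaller or opposite difference at 23 °C. cki-1, which encodes an inhibitor of cyclin-dependent kinases, had 76.5, 75.6 and 32.2 RPKM in hrde-1 at 15C-G1, G2 and G3 against 4.95, 3.36 and 2.58 RPKM in WT. At 23C-G1, G2 and G3 it had 10.4, 10.26 and 9.81 RPKM in hrde-1 against 5.21, 6.30 and 6.71 RPKM in WT, still without overlap (log2 fold change 0.66, adjusted p = 0.45, change -3.02). sma-4, the common Smad of the body size pathway, averaged 48.8 RPKM in hrde-1 and 3.303 RPKM in WT at 15 °C, and 8.19 RPKM in hrde-1 and 4.71 RPKM in WT at 23 °C (-3.20), and its call was lost without hrde-1 23C-G3 at -2.73. At both genes hrde-1 lay nearer to WT at 23 °C, through lower values in hrde-1. At C24A11.1 and T05C3.6 it was the WT values that differed between temperatures. C24A11.1 averaged 56.01 RPKM in hrde-1 and 5.47 RPKM in WT at 15 °C, and 35.6 RPKM in hrde-1 and 42.3 RPKM in WT at 23 °C (-3.34), a call lost without WT 23C-G2 (-2.93) or hrde-1 23C-G3 (-3.06). T05C3.6 averaged 42.6 RPKM in hrde-1 and 4.36 RPKM in WT at 15 °C, and 38.4 RPKM in hrde-1 and 38.3 RPKM in WT at 23 °C (-3.27), where hrde-1 lay above WT at 23C-G1 and below it at 23C-G3. Y37A1B.4 changed sides, being higher in hrde-1 at 15 °C (1.65) and lower at 23 °C (-1.54).

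Among the high-stringent NHGs the change was called upwards for 1 and downwards for 6. Y77E11A.3 had 1263, 1308 and 934 RPKM in hrde-1 at 15C-G1, G2 and G3 against 1163, 1192 and 1074 RPKM in WT, and its siRNAs were called higher in hrde-1 at 23C-G1 to G3 (change 1.04). At p15C-G1 to G3 they were higher as well, by a log2 fold change of 0.74, short of 2-fold. F41G4.7, C18D4.6, ZK262.9 and the identical pair AC8.4 and AC8.11 became lower in hrde-1 relative to WT, by changes of -1.26, -1.47, -2.12 and -1.31. C44B12.6 had the largest change, with 405, 457 and 541 RPKM in hrde-1 at 15C-G1, G2 and G3 against 118, 94.1 and 93.5 RPKM in WT. At 23C-G1, G2 and G3 it had 324, 214 and 102 RPKM in hrde-1 against 219.8, 279 and 209 RPKM in WT (-2.47). At ZK262.9 both sides moved, with 119, 107 and 149 RPKM in hrde-1 at 15 °C against 234, 311 and 242 RPKM in WT there, and fewer in hrde-1 but more in WT at 23 °C.

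**Figure D5:**
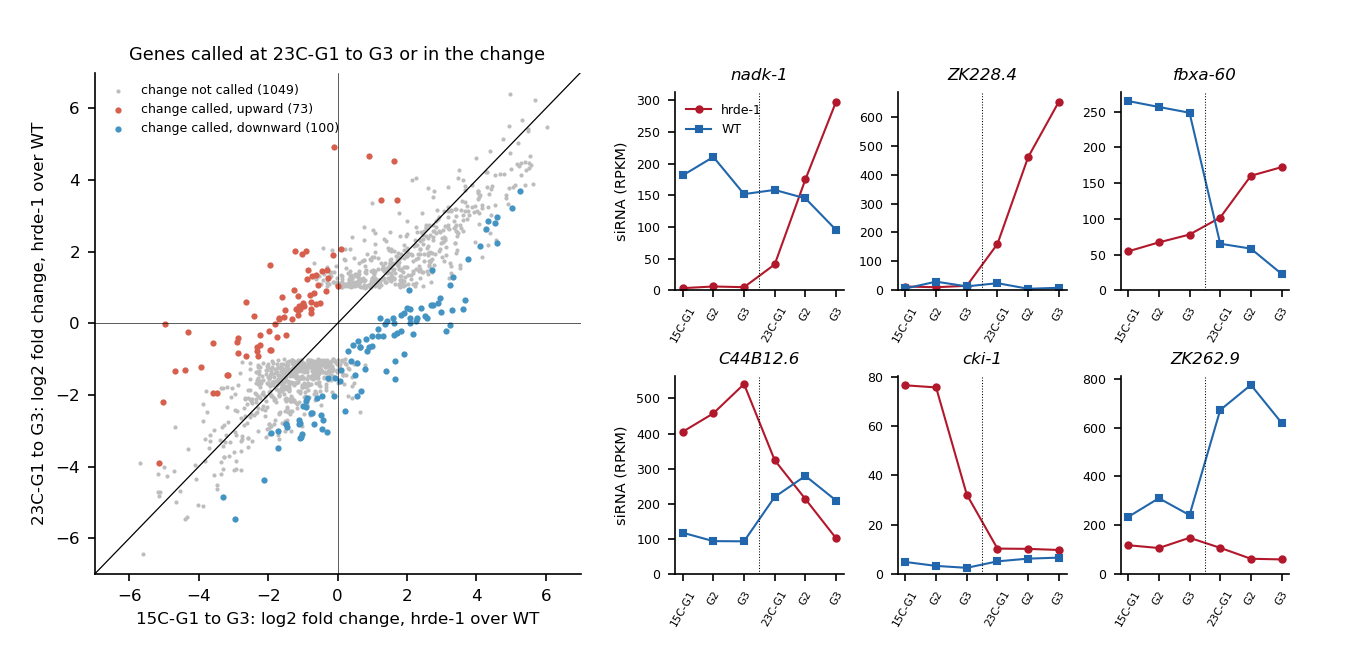
Left, log2 fold change (hrde-1 over WT) at 23C-G1 to G3 against that at 15C-G1 to G3 for the genes called at 23C-G1 to G3 or in the change, with equality as a line. Right, siRNA (RPKM) of 6 genes in the 6 libraries of each genotype before and after the shift (dotted line), such as nadk-1, which had 3.53 to 6.16 RPKM in hrde-1 at 15 °C and 40.95 to 297 RPKM at 23 °C.

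Most genes called at 23C-G1 to G3 were also called in other phases. These share no libraries with it, but they share the 2 populations and, through the same fit, the spread of each gene. The overlap is thus no independent repeat. Of the 496 higher genes 349 were also higher at 15C-G1 to G3 (70.4% of them, and 47.3% of the 738 genes higher at 15 °C), 349 at 23C-G4 to G6 (65.7% of the 531 genes of that phase) and 353 at p15C-G1 to G3 (48.8% of the 724 there). Of the 635 lower genes 389 were also lower at 15C-G1 to G3 (61.3% of them, and 47.9% of the 813 at 15 °C), 426 at 23C-G4 to G6 (67.1%, and 67.6% of the 630 there) and 393 at p15C-G1 to G3 (61.9%, and 45.6% of the 862 there). All 4 phases shared 270 higher and 260 lower genes, and 71 higher and 97 lower genes were called at 23C-G1 to G3 alone. A call missed in another phase is not a difference between phases. The shared genes included xdh-1, whose log2 fold change was 4.96 at 15C-G1 to G3, and trp-4, at -5.59 there. Called in opposite directions at 15C-G1 to G3 were 3 of the higher and 2 of the lower genes, among them fbxa-60 and Y37A1B.4.

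No gene's genotype difference was called as changed between 23C-G1 to G3 and 23C-G4 to G6 (limma, smallest adjusted p = 0.194). By unadjusted p, 848 genes or 4.27% were under 0.05. Within 23C-G1 to G3, no gene passed the test of a difference in slope per generation between hrde-1 and WT either (at least 0.5 on the log2 scale per generation, smallest adjusted p = 0.231), with 809 genes or 4.08% under 0.05 by unadjusted p. With 3 generations per genotype and phase, this does not show that the differences stayed the same. Without hrde-1 23C-G3, 12 genes were called upwards and 17 downwards between the phases at 23 °C, and without WT 23C-G3 1 was called downwards. The slopes differed at 2 genes without hrde-1 23C-G1 and at 1 without hrde-1 23C-G2, both downwards.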

How the data were processed

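Small RNA of whole young adults was sequenced by the study after linker ligation with phosphatase and kinase treatment, so that siRNAs were captured whatever their 5′ phosphate. The authors' methods name Bowtie 0.12.7 and the mRNA database of WormBase WS190. They kept perfect antisense alignments and deposited RPKM (reads per kilobase of exon and per 1e6 reads). Where no transcript length was matched, reads were inferred from the median length of the gene's transcripts (2687 transcripts) or of all (596). The sources used here do not state how multiply matching reads were treated. A floor of 1 read, inferred here from the steps of low values, is not mentioned.

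Of the transcripts of a gene (616 genes had more than 1) that of the highest mean stood for it. log2(RPKM + 1) of 24 libraries was fitted with limma 3.58.1 (R 4.3.3, eBayes with trend, two-sided) with 8 means, a genotype and phase each, over 19839 genes of at least 1 RPKM on average. No count model was used on RPKM. The interaction and slope contrasts came from the same data. The script was tested on simulated data. Deviations from the group means correlated between same-generation libraries at 0.133, 0.257 and 0.233 (each over 0.1), so generation numbers pair the libraries. The values given come from the fit without that block, and the blocked fit is given where it moves a count by over 1.5 times. At 23C-G1 to G3 the blocked fit kept 479 of the 496 higher and 618 of the 635 lower calls. Of the changes against 15C-G1 to G3 it kept 65 of the 73 upward and 93 of the 100 downward ones.

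Named genes are the 10 called genes per direction with the largest difference (at least 10 RPKM, no overlap), the 8 most abundant, the 5 per direction with the largest change, hrde-1, hsp-16.48, fat-7, the cumulative and the 4 lowest and 4 highest other NHGs, up to 4 called members of each of 30 lists (the most abundant where none was called) and 6 groups of neighbours. Other names are marked. Members and lists were chosen with earlier results of these data known. Chromosomes and distances come from the WBcel235 annotation by gene name (97.0% of genes), not from WS190. Alternatives were another pseudocount (0.25 or 10), no filter or at least 5 reads, median-ratio scaling, the read floor taken off, only the libraries of the phases compared, a generation block, no trend, an adjusted p of 0.05, and leaving out each library or 23C-G1. Other software was python 3.11.15, numpy 2.4.6, pandas 2.3.3 and matplotlib 3.10.9.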

Additional observations from a re-analysis of the deposited data

Results flagged for a closer look

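The genotype difference itself changed between 15C-G1 to G3 and 23C-G1 to G3, by the interaction contrast of limma (adjusted p of at most 0.1), at the following genes, given as the change in log2 fold change of hrde-1 over WT. Upwards, ZK228.4 changed by 5.02, nadk-1 by 4.95, ZK228.10 by 3.78, fbxa-60 by 3.58, F21D9.8 by 3.36 and the NHG Y77E11A.3 by 1.04. Downwards, C24A11.1 changed by -3.34, T05C3.6 by -3.27, Y37A1B.4 by -3.20, sma-4 by -3.20 and cki-1 by -3.02. Of the NHGs, C44B12.6 changed by -2.47, ZK262.9 by -2.12, C18D4.6 by -1.47, AC8.4 and AC8.11 (identical values) by -1.31 and F41G4.7 by -1.26. The changes of C24A11.1, F21D9.8 and sma-4 lost their calls without single libraries, as given above. With the read floor taken off, the changes of ZK228.10 (3.61 ± 1.198, adjusted p = 0.31), sma-4 (adjusted p = 0.14) and F21D9.8 (adjusted p = 0.102) were not called. Of the NHGs, F41G4.7 (adjusted p = 0.082) and C18D4.6 (adjusted p = 0.092) passed at 0.1 and not at 0.05.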

How the results depend on the processing

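No call turned to the opposite direction under any alternative, and 95 of the 134 named genes called at 23C-G1 to G3 were called under every one. At 23C-G1 to G3, 430 to 516 genes were higher and 549 to 682 lower under the alternatives that left out no single library, except for 331 and 378 with a pseudocount of 10 RPKM, which shrinks low genes by construction. Leaving out each library gave 444 to 494 and 534 to 627. With median-ratio scaling 434 were higher and 682 lower. The change against 15C-G1 to G3 was called upwards for 73 and downwards for 100 genes, but for 41 and 53 at an adjusted p of 0.05, 119 and 167 with the generation number as a replicate block, 52 downwards with only the 12 libraries compared, and 39 to 119 and 44 to 130 without each library. The change to 23C-G4 to G6, with 0 calls, had 4 and 3 with a pseudocount of 10 RPKM, 3 and 3 among genes of at least 5 reads, 3 and 0 with the read floor taken off, and 0 to 12 and 0 to 17 without each library. The slope, with 0 calls, had 1 and 1 among genes of at least 5 reads, 3 and 4 with only the 6 libraries compared, 70 and 81 with the read floor taken off, and 0 upwards and 0 to 2 downwards without each library. The causes were not tested. At 363600 to 715800 inferred reads, calls of genes near the read floor rest on few reads, such as at most 3.00 in hrde-1 and 1.00 in WT at spe-21.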

Other observations

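A run of 6 genes within 27.1 kb of chromosome V held calls of both directions, a pattern noticed after the values were seen. At its one end ZK262.8 had 578, 481 and 391 RPKM in hrde-1 at 23C-G1, G2 and G3 against 1236, 1569 and 1349 RPKM in WT (log2 fold change -1.53), and ZK262.9, which overlaps it on the annotation, so that they can share siRNAs, was at -3.19. The next gene, 2.79 kb away, ZK228.1, had 40.5, 126.2 and 126.5 RPKM in hrde-1 against 28.3, 25.7 and 11.9 RPKM in WT (2.02 ± 0.38). ZK228.10 and ZK228.4 at the other end were at 4.68 and 4.93, while ZK228.3 between them lay near the read floor in both genotypes. At 15C-G1 to G3 the log2 fold changes of these genes were -0.69 (ZK262.8), -1.07 (ZK262.9), -1.21 (ZK228.1), 0.90 (ZK228.10) and -0.10 (ZK228.4). At 23C-G4 to G6 they were -1.72, -4.31, 4.05, 5.53 and 5.66, and at p15C-G1 to G3 -1.61, -3.13, 2.597, 4.81 and 4.20, in the same order. Over all chromosomes, neighbouring called genes within 10 kb of each other were both higher in 70 pairs, both lower in 113 and of opposite direction in 45.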
